A study of Mus musculus with 114 samples.

Results

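In the C-titled libraries, the ribosome-bound RNA of pyramidal cells by their marker genes, 7 genes outside the circadian clock had some of the strongest daily rhythms of the table: Sphk2, Klhl40, Pcsk4, Mettl16, Hist3h2a, Srrt and 9030407P20Rik. They are 7 of the 13101 genes counted, and all 7 passed the filter on low counts in both sets of libraries. They were chosen by measured values, namely small p values in a fit of a 24 h cosine curve to the C-titled libraries, leaving out a list of 20 clock genes. Their rhythm in C-titled libraries is therefore given as a description without a test. Among all genes outside the clock list they hold ranks 1, 2, 3, 5, 6, 7 and 10 by that p value. The 3 genes in between were Chordc1 at rank 4, Cplx3 at rank 8 and Gm44313 at rank 9. Just inside the choice stood 9030407P20Rik (p = 4.62e-12), and just outside stood Cirbp (p = 5.69e-12) at rank 11 and Hnrnpdl (p = 6.52e-12) at rank 12.

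The mice carried the RiboTag allele, a haemagglutinin tag on a ribosomal protein, and tagged ribosomes were pulled down from brain tissue, the prefrontal cortex per the study's design, with the RNA bound to them. The 6 times of day were ZT2, ZT6, ZT10, ZT14, ZT18 and ZT22, where ZT (zeitgeber time) counts hours from lights on. The 58 C-titled libraries came from 29 female and 29 male samples, the 55 PV-titled libraries from 28 female and 27 male samples, and each prefix and time holds 8 to 10. All groups share the RiboTag genotype. The sources used here do not give driver lines, ages or any pooling of animals, and nothing says that libraries came from separate animals, so p values measure the spread between these libraries. In every library the prefix of the title and the labelled cell type name opposite kinds of cell. Marker genes went with the title: Pvalb, the parvalbumin gene, had a median of 0.793 CPM (edgeR's counts scaled to equal library totals, here after TMM scaling) in C-titled and 33.0 CPM in PV-titled libraries. Slc17a7, the vesicular glutamate transporter of pyramidal cells, had medians of 1809 and 718 CPM, and Gad1, the GABA-synthesising enzyme, 22.6 and 407 CPM. No library had 0 counts of any of these markers.

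Counts on genes ran from 24.6 to 44.1 M (mega) per C-titled library and from 19.1 to 39.5 M per PV-titled library. Among them, 8 libraries stood apart from the rest of their prefix by correlation of log2 CPM: C-titled ZT2 replicates 5 and 7, C-titled ZT6 replicates 5, 6 and 10, and PV-titled ZT10 replicate 2, ZT14 replicate 2 and ZT22 replicate 4. Their median correlation with the others was 0.878 to 0.941 in C-titled and 0.809 to 0.854 in PV-titled libraries, against at least 0.959 and 0.892 in the rest. Values without these libraries are given beside the results on the 7 genes and on the gene lists.

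Daily rhythms of transcripts arise from the circadian clock, a feedback loop of transcription factors present in most cells, and from signals that follow sleep, feeding, temperature and hormones. Clock output factors such as Dbp bind D-box sites in the promoters of genes that are not themselves part of the loop. In the forebrain, many transcripts vary over the day with sleep and wake. The 7 genes have no pathway in common. Sphk2 encodes sphingosine kinase 2, which makes the signalling lipid sphingosine-1-phosphate, in large part inside the nucleus and mitochondria. Pcsk4 encodes a proprotein convertase, a protease that cuts precursor proteins and is best known from sperm. Klhl40 encodes a kelch protein that stabilises thin filament proteins of skeletal muscle. Mettl16 encodes an RNA methyltransferase that places m6A on the U6 small nuclear RNA and on the transcript of an S-adenosylmethionine synthetase. Srrt, also called Ars2, encodes a partner of the nuclear cap-binding complex that links transcripts to processing and decay. Hist3h2a encodes a core histone of the H2A family. 9030407P20Rik is a noncoding RNA gene.

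All positions are from the mouse build GRCm38 with the GENCODE vM21 annotation. Sphk2 lies at chr7:45709467-45718002, minus strand, Pcsk4 at chr10:80321283-80329498, minus strand, and Klhl40 at chr9:121777607-121783818, plus strand. Mettl16 lies at chr11:74770830-74828525, plus strand, Srrt at chr5:137295704-137307674, minus strand, Hist3h2a at chr11:58954685-58956830, plus strand, and 9030407P20Rik at chr7:120673436-120677570, minus strand. All are annotated as protein coding except 9030407P20Rik, a processed transcript.

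RefSeq promoter sequences were found for 5 of the 7 genes, Hist3h2a under its newer name H2aw. Pcsk4 and 9030407P20Rik were not matched. The promoters of Sphk2, which had the smallest p value of the 7, and of Mettl16, Srrt and Hist3h2a, which were all highest late in the night, are printed because they let the windows of genes with similar and with different timing be compared. Each runs 5′ to 3′ on the gene's strand from 250 bases before the start to 30 bases after it (GRCm38.p6), with any motif searched in capitals.
Sphk2, chr7:45717973-45718252: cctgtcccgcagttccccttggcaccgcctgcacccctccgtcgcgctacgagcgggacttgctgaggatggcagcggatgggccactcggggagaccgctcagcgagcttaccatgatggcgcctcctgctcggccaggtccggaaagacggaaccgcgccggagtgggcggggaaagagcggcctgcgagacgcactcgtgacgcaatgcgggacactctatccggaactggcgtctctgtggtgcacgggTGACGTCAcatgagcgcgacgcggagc
Mettl16, chr11:74770613-74770892: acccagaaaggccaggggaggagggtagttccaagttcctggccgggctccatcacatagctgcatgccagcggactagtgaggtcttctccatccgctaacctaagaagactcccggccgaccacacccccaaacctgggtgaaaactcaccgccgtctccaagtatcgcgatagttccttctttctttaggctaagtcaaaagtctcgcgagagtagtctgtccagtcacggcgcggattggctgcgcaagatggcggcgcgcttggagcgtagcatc
Srrt, chr5:137307645-137307924: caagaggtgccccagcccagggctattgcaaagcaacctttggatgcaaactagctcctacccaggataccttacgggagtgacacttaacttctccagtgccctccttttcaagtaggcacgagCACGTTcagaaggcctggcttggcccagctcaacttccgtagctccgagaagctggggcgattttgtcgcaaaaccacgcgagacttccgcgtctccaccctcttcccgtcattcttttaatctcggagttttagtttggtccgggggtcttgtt
Hist3h2a, chr11:58954435-58954714: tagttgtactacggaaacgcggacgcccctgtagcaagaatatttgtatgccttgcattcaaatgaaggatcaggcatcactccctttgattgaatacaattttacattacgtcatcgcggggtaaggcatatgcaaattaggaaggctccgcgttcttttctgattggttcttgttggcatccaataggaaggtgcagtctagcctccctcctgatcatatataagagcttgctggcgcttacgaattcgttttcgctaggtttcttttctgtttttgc
The motifs, on both strands of windows of 300 bases (250 before to 50 after the start), were the E-box CACGTG, the E-prime box CACGTT, the D-box TTANGTAA, the RORE TAGGTCA, the cyclic AMP response element TGACGTCA and the heat shock element GAANNTTC. No pair of matches overlapped in these windows. The Sphk2 window held TGACGTCA, from 3 bases after the start, a match found in 1.79% of 32851 RefSeq promoters. The Srrt window held CACGTT 125 bases before the start, a match found in 4.68% of promoters. The windows of Mettl16, Hist3h2a and Klhl40, and a second promoter of Sphk2, held none of these motifs. E-boxes stood in 7.15%, D-boxes in 2.32%, ROREs in 2.61% and heat shock elements in 7.86% of all promoters.

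Sphk2, the lipid kinase, was the most strongly expressed of the 7 genes in C-titled libraries per length, and was highest early in the night. Its medians there were 78.5 CPM at ZT2, 84.1 at ZT6, 116 at ZT10, 141.6 at ZT14, 135 at ZT18 and 101.1 at ZT22. The 10 libraries at ZT14 lay between 113 and 153.3 CPM, and the 10 at ZT2 between 39.0 and 95.2 CPM. The ZT14 and ZT2 libraries did not overlap. The fitted curve had an amplitude, from mean to peak, of 0.45 ± 0.04 in log2 (SE, n = 58), a 1.88-fold difference from trough to peak, with the peak at ZT15.0. In PV-titled libraries the medians were 56.3 CPM at ZT2, 59.3 at ZT6, 79.4 at ZT10, 79.6 at ZT14, 76.4 at ZT18 and 68.1 at ZT22. The times were in nearly the same order but closer together, and the ranges at ZT14 (51.0 to 103 CPM) and ZT2 (53.1 to 83.6 CPM) overlapped. The amplitude in PV-titled libraries was 0.21 ± 0.05 (SE, n = 55), peak ZT14.1, and passed the test (edgeR quasi-likelihood F test, adjusted p = 0.0129). The call was lost without replicate 1, 4 or 9, with adjusted p between 0.0532 and 0.0556.

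Pcsk4, the convertase, had the largest amplitude of the 7 in C-titled libraries and peaked there at the same time as Sphk2. Its C-titled medians were 7.98 CPM at ZT2, 7.57 at ZT6, 14.4 at ZT10, 20.4 at ZT14, 18.1 at ZT18 and 10.5 at ZT22. At ZT14 the libraries ranged from 8.67 to 30.6 CPM and at ZT6 from 5.95 to 14.1 CPM. These groups overlapped, with 8 of the 10 ZT14 libraries above all ZT6 libraries. The amplitude was 0.67 ± 0.06, a 2.54-fold difference from trough to peak, with the peak at ZT15.2. In PV-titled libraries the medians were 8.53 CPM at ZT2, 11.8 at ZT6, 16.9 at ZT10, 17.1 at ZT14, 11.9 at ZT18 and 10.7 at ZT22. The high times were thus ZT10 and ZT14 rather than ZT14 and ZT18. The PV amplitude was 0.50 ± 0.09, with the peak at ZT11.9 ± 0.68 h, 3.37 h earlier than in C-titled libraries, and passed the test (edgeR, adjusted p = 0.00125).

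Klhl40, the kelch protein of muscle, was measured at 129 to 1054 counts per library in this cortical tissue and was highest around lights off. C-titled medians were 10.8 CPM at ZT2, 17.2 at ZT6, 23.1 at ZT10, 23.98 at ZT14, 12.7 at ZT18 and 10.01 at ZT22. All 10 libraries at ZT14 (13.3 to 28.4 CPM) lay above all 10 at ZT22 (7.88 to 12.9 CPM). The amplitude was 0.62 ± 0.06, a 2.35-fold difference from trough to peak, with the peak at ZT10.9. In PV-titled libraries the medians were 8.43 CPM at ZT2, 13.3 at ZT6, 15.3 at ZT10, 11.6 at ZT14, 12.8 at ZT18 and 7.86 at ZT22. The ZT10 libraries (9.88 to 26.8 CPM) and the ZT22 libraries (3.86 to 11.5 CPM) overlapped, with 7 of 9 ZT10 libraries above all ZT22 libraries. The PV amplitude was 0.50 ± 0.09, peak ZT11.4, and passed the test (edgeR, adjusted p = 0.00173).

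Mettl16, Srrt and Hist3h2a, whose products act on nuclear RNA and chromatin, were highest at ZT18 and ZT22 in C-titled libraries and lowest at ZT6 and ZT10. Mettl16 medians in C-titled libraries were 35.2 CPM at ZT2, 28.5 at ZT6, 26.3 at ZT10, 36.0 at ZT14, 37.8 at ZT18 and 41.4 at ZT22. All 10 libraries at ZT22 (36.8 to 45.0 CPM) exceeded all 9 at ZT10 (24.3 to 35.9 CPM). The amplitude was 0.28 ± 0.03, the smallest of the 7, with the peak at ZT20.3. In PV-titled libraries Mettl16 medians lay between 24.1 CPM at ZT10 and 33.0 CPM at ZT22, and single libraries between 9.61 and 59.6 CPM. Libraries of the same time differed more than the medians of different times did. The PV amplitude of 0.06 ± 0.09 did not pass the test (edgeR, adjusted p = 0.921), and the fitted peak, with an SE of 5.46 h, carries no timing.

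Srrt, the cap-binding partner, had C-titled medians of 65.7 CPM at ZT2, 50.1 at ZT6, 44.6 at ZT10, 52.2 at ZT14, 75.4 at ZT18 and 75.7 at ZT22. All 10 libraries at ZT22 (67.4 to 84.3 CPM) exceeded all 9 at ZT10 (38.3 to 63.9 CPM). The step from ZT14 to ZT18 was the steepest, and the amplitude was 0.37 ± 0.04 with the peak at ZT21.1. PV-titled medians were 88.2 CPM at ZT2, 90.3 at ZT6, 73.3 at ZT10, 91.8 at ZT14, 102 at ZT18 and 96.4 at ZT22. The same low time, ZT10, appeared there, and 8 of 9 ZT18 libraries lay above all 9 ZT10 libraries. The PV amplitude of 0.17 ± 0.05, peak ZT19.1, did not pass the test with edgeR (adjusted p = 0.0693). With DESeq2 in place of edgeR the adjusted p of Srrt was 0.0414.

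Hist3h2a, the histone gene, had C-titled medians of 21.9 CPM at ZT2, 16.2 at ZT6, 15.9 at ZT10, 17.4 at ZT14, 22.3 at ZT18 and 23.6 at ZT22. All 10 libraries at ZT22 (20.8 to 30.2 CPM) exceeded all 9 at ZT10 (14.7 to 18.1 CPM). The amplitude was 0.33 ± 0.03, with the peak at ZT21.6. PV-titled medians were 19.9 CPM at ZT2, 16.9 at ZT6, 17.4 at ZT10, 25.6 at ZT14, 24.9 at ZT18 and 22.05 at ZT22. The ZT14 libraries were thus high in PV-titled but low in C-titled libraries. The PV amplitude was 0.27 ± 0.07 with the peak at ZT17.4 ± 0.96 h, 4.19 h earlier than in C-titled libraries, and passed the test (edgeR, adjusted p = 0.0368). That call was kept in 2 of the 10 fits that left out 1 replicate number, and the adjusted p reached 0.174 without replicate 1. H2A genes are near copies of each other, and the sources used here do not say how reads matching several copies were counted, so the level of this gene is uncertain.

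9030407P20Rik, the noncoding RNA, was the only one of the 7 with its fitted peak in the middle of the day in both sets of libraries. C-titled medians were 8.33 CPM at ZT2, 11.8 at ZT6, 12.3 at ZT10, 8.90 at ZT14, 5.86 at ZT18 and 6.39 at ZT22. The ZT10 libraries (8.29 to 15.0 CPM) and the ZT18 libraries (4.52 to 8.83 CPM) overlapped, with 8 of 9 ZT18 libraries below all ZT10 libraries. The amplitude was 0.52 ± 0.06, a 2.05-fold difference from trough to peak, with the peak at ZT8.03. In PV-titled libraries the medians were 9.01 CPM at ZT2, 11.1 at ZT6, 12.2 at ZT10, 7.62 at ZT14, 8.08 at ZT18 and 5.83 at ZT22. At ZT18 they spread from 0.819 to 11.5 CPM, and the lowest of these libraries held 26 counts. The PV amplitude of 0.56 ± 0.12, peak ZT7.34, passed the test (edgeR, adjusted p = 0.0111).

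**Figure D1:**
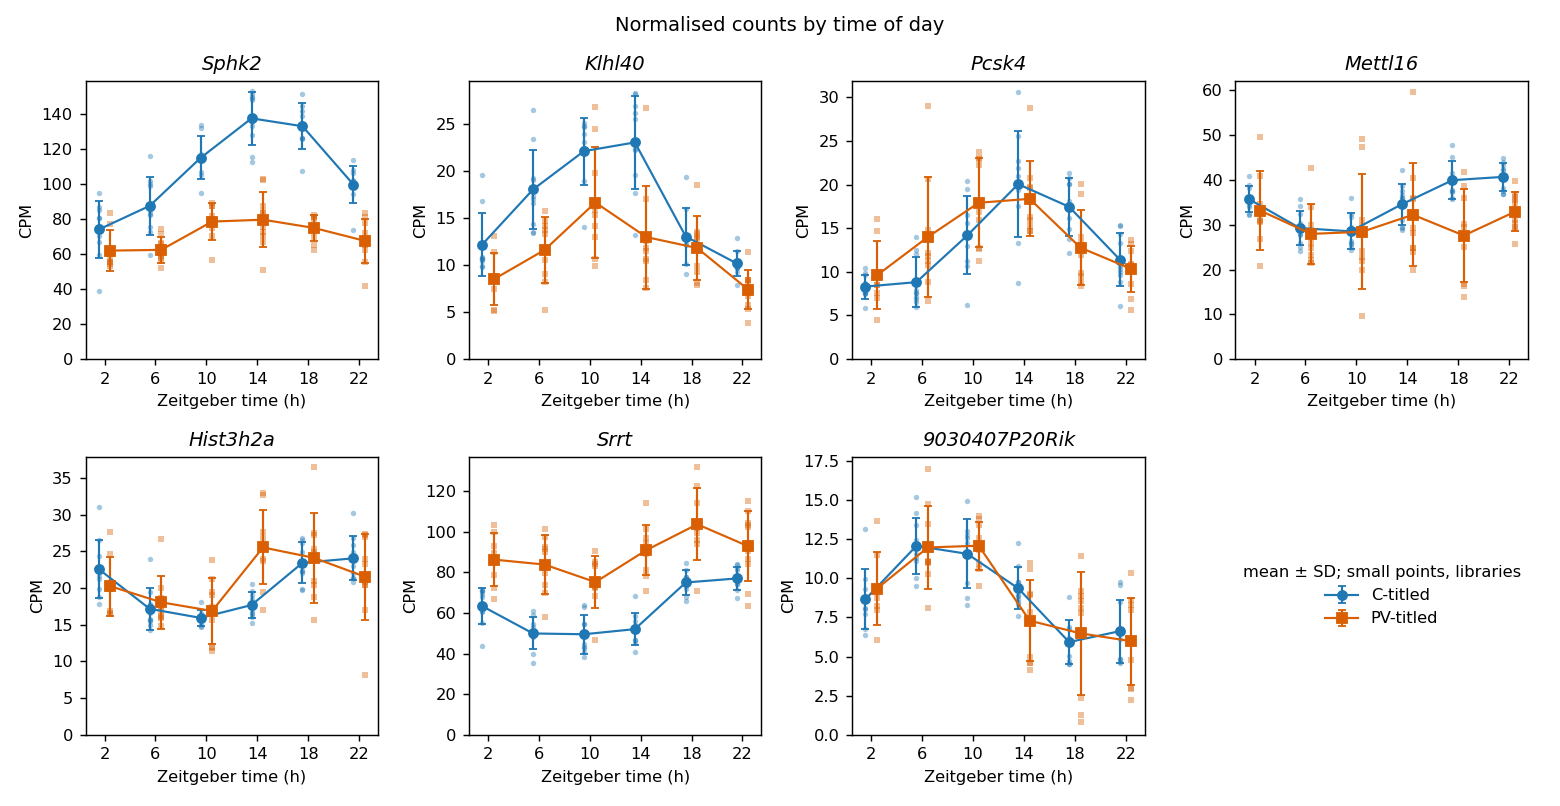
Normalised counts (CPM, y axis from 0) of each gene against zeitgeber time in hours. Small points are libraries and large points are means with SD bars, for C-titled (circles) and PV-titled (squares) libraries. Sphk2 runs from a median of 78.5 to 141.6 CPM in C-titled libraries and from 56.3 to 79.6 CPM in PV-titled libraries, and Mettl16 has wide bars in PV-titled libraries.

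The PV-titled libraries were no part of the choice, so the rhythm can be tested there. Summed pyramidal markers had a median of 2417 CPM in them, against 6108 CPM in C-titled libraries. The part of RNA from pyramidal cells in PV-titled rhythms was not tested. Of the 7 genes, 5 passed (Sphk2, Klhl40, Pcsk4, Hist3h2a and 9030407P20Rik), where 404 of all 13047 genes tested did, or 3.10%. Among all genes by p value, Pcsk4 held rank 48 and Klhl40 rank 53. Of the 5, Klhl40, Pcsk4 and 9030407P20Rik had peaks from ZT0 to ZT12, where 1.29% of all genes passed with such a peak. With time as a factor, Sphk2 (adjusted p = 0.0883), Hist3h2a (0.0786) and 9030407P20Rik (0.0985) did not pass by edgeR. With scaling by library totals, Sphk2 (0.0694) and Hist3h2a (0.0787) did not pass, and without the range term Hist3h2a (0.0623) did not. The median amplitude of the 7 in PV-titled libraries was 0.27, against 0.11 for all genes tested. In C-titled libraries, where the choice was made, all 7 passed as chosen, beside 27.0% of all genes, and their median amplitude was 0.45 against 0.12. There Klhl40 and 9030407P20Rik had peaks from ZT0 to ZT12, and 15.8% of all genes passed with such a peak. Set side by side, amplitudes were lower in PV-titled libraries for 6 of the 7 genes and higher for 9030407P20Rik. Fitted peaks lay within 1 h of each other for Sphk2, Klhl40 and 9030407P20Rik, and were 1.99 h earlier in PV-titled libraries for Srrt. These differences between the sets were not tested, since the choice used the C-titled rhythm.

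**Figure D2:**
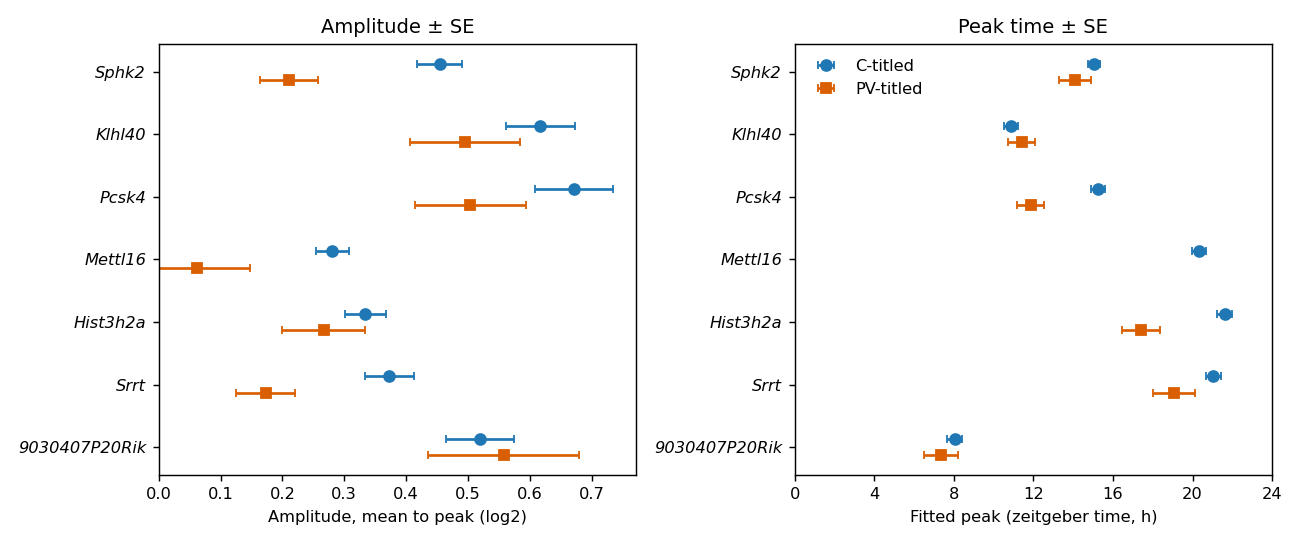
Fitted amplitude (log2, left) and peak time (zeitgeber hours, right) with SE bars for C-titled (circles) and PV-titled (squares) libraries. The peak of Mettl16 in PV-titled libraries, whose SE is 5.46 h, is not drawn. Pcsk4 and Hist3h2a have their PV-titled peaks 3.37 and 4.19 h before their C-titled peaks.

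Without the libraries that stand apart, the same 5 genes passed in PV-titled libraries, where 4.06% of all genes passed, against 3.10% with them. The adjusted p (edgeR) was 0.00321 for Sphk2, 0.00296 for Klhl40, 0.0013 for Pcsk4, 0.00954 for Hist3h2a and 0.0172 for 9030407P20Rik. C-titled amplitudes without the libraries that stand apart were 0.42 for Sphk2, 0.63 for Klhl40, 0.65 for Pcsk4 and 0.29 for Mettl16. They were 0.34 for Hist3h2a, 0.36 for Srrt and 0.54 for 9030407P20Rik. Library numbers in the titles fall into a lower and a higher range, here called first and second, which were treated as batches. Within each range alone none of the 7 passed in PV-titled libraries by edgeR, where 20 and 40 genes of the whole table did. By edgeR, 5 of the 7 had an unadjusted p under 0.05 in each range, where 8.75% of all genes in the first and 10.6% in the second did. They were all but Mettl16 and Srrt in the first and all but Mettl16 and Hist3h2a in the second. The PV amplitudes in the first and second range were 0.26 and 0.19 for Sphk2, 0.64 and 0.38 for Klhl40, and 0.56 and 0.48 for Pcsk4. They were 0.36 and 0.18 for Hist3h2a, 0.18 and 0.17 for Srrt, and 0.59 and 0.56 for 9030407P20Rik. Peaks in the separate ranges stayed within 1.25 h of the joint fit for these 6 genes. In C-titled libraries the ranges gave amplitudes of 0.52 and 0.40 for Sphk2, 0.52 and 0.72 for Klhl40, 0.69 and 0.68 for Pcsk4, and 0.26 and 0.32 for Mettl16. They gave 0.35 and 0.34 for Hist3h2a, 0.33 and 0.43 for Srrt, and 0.59 and 0.44 for 9030407P20Rik.

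**Figure D3:**
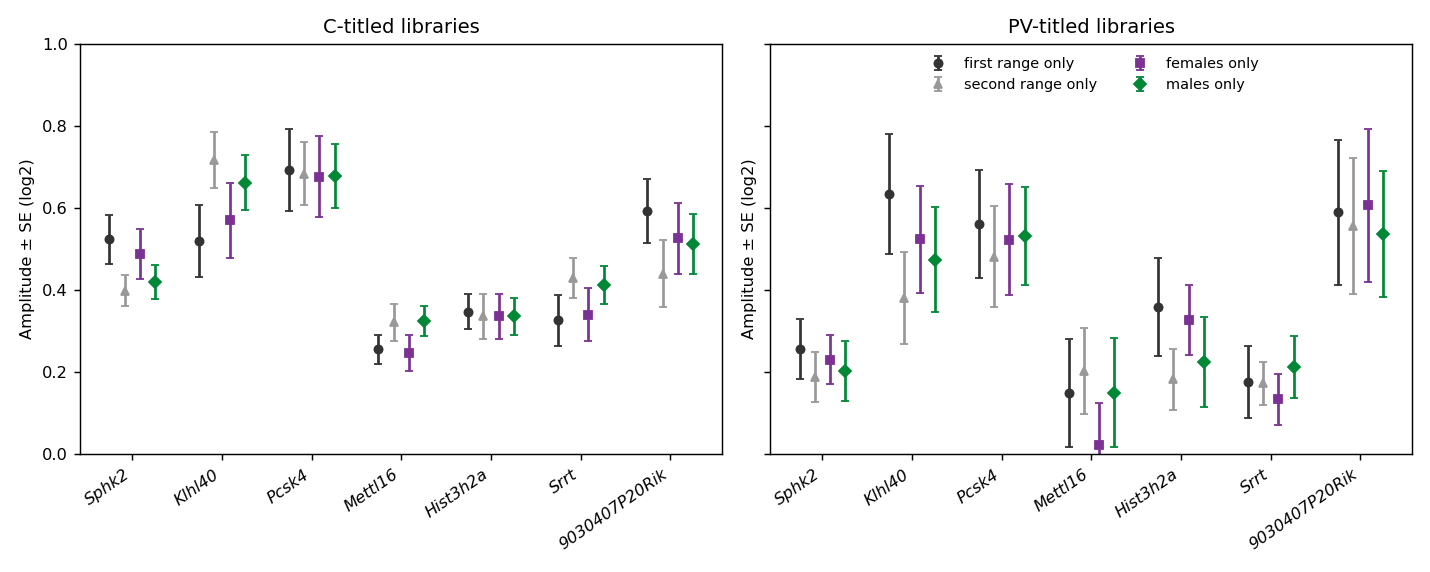
Fitted amplitude (log2, y axis from 0) with SE bars of each gene in the 2 ranges of library numbers and in each sex, for C-titled (left) and PV-titled (right) libraries. C-titled amplitudes of Pcsk4 lie between 0.68 and 0.69 in the 4 subsets, and bars in PV-titled libraries are wider.

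No difference in rhythm between females and males passed the test for these genes. C-titled amplitudes in females and males were 0.49 and 0.42 for Sphk2, 0.57 and 0.66 for Klhl40, 0.68 and 0.68 for Pcsk4, and 0.25 and 0.33 for Mettl16. They were 0.34 and 0.34 for Hist3h2a, 0.34 and 0.41 for Srrt, and 0.53 and 0.51 for 9030407P20Rik. The product of sex and rhythm passed for none of the 7 genes by edgeR or DESeq2, with the lowest unadjusted p among the 7 at 0.132 by edgeR, for Mettl16 in C-titled libraries. Of all genes 0% passed by edgeR, where 1.34% of genes in C-titled and 5.42% in PV-titled libraries had an unadjusted p under 0.05, and DESeq2 called 0 and 1. Mean levels by sex also passed for none of the 7 by edgeR (Mettl16 in C-titled and Klhl40 in PV-titled libraries had an unadjusted p under 0.05), beside 0.184% of all genes in C-titled and 0.0307% in PV-titled libraries. The gene nearest to the threshold was Mettl16, the methyltransferase, with 36.7 ± 5.42 CPM (SD, n = 29) in females and 33.0 ± 5.95 CPM (n = 29) in males in C-titled libraries. Its male minus female difference there was -0.16 in log2 (edgeR, adjusted p = 0.0763). Mettl16 passed once the libraries standing apart were left out (edgeR, adjusted p = 0.0246) and with DESeq2 (adjusted p = 0.0264). The shares of all genes passing in these fits were 0.698% and 0.299%. Klhl40 was higher in males in PV-titled libraries before adjustment only (12.9 ± 5.57 against 10.2 ± 4.04 CPM, edgeR p = 0.0168 and adjusted p = 0.9999).

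The mean level over the day differed between the prefixes for 4 of the 7 genes, where 87.5% of all 13053 genes tested differed, 44.3% higher and 43.2% lower in PV-titled libraries. Srrt was higher in PV-titled libraries (89.0 ± 16.6 against 61.1 ± 13.7 CPM, mean ± SD over 55 and 58 libraries; log2 difference 0.56, edgeR adjusted p = 2.07e-21). Sphk2 was lower in PV-titled libraries (71.2 ± 13.1 against 107 ± 27.1 CPM; -0.58, adjusted p = 4.45e-24 by edgeR), and so was Klhl40 (11.5 ± 4.99 against 16.4 ± 6.09 CPM; -0.51, adjusted p = 3.98e-10). Mettl16 was lower by -0.19 (adjusted p = 0.0047), a difference that was 0.00089 with scaling by library totals alone, which raised the median difference of all genes by 0.20. Pcsk4 (0.09, adjusted p = 0.347), Hist3h2a (0.06, adjusted p = 0.269) and 9030407P20Rik (-0.04, adjusted p = 0.675) did not pass. In pull-downs of bulk tissue, fewer tagged cells and less RNA per cell cannot be told apart. PV-titled libraries also had higher sums of markers of glial and vessel cells. The medians of the sums were 1605 CPM against 549 for 10 astrocyte markers, 427 against 161.3 for oligodendrocyte markers, 240 against 69.8 for 10 microglia markers and 194.9 against 31.4 for vessel markers. Summed nuclear long noncoding RNAs had medians of 16179 CPM in PV-titled and 2212 CPM in C-titled libraries. For summed pyramidal markers the medians were 2417 and 6108 CPM in the same order, and for summed GABAergic markers 1126 and 79.6 CPM. The part of these in the level differences was not tested. Per kilobase of exon, mean levels in C-titled libraries ran from 25.8 CPM for Sphk2 over 11.7 for Srrt, 9.40 for Hist3h2a, 6.57 for Klhl40, 4.49 for Pcsk4 and 3.77 for 9030407P20Rik to 2.52 for Mettl16. The SDs in this order were 6.51, 2.62, 1.96, 2.435, 1.93, 1.19 and 0.43. Intervals of 1 SD overlapped for each neighbouring pair in this order except Sphk2 and Srrt.

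Several genes that share exons with, or lie next to, the 7 passed in C-titled libraries, where 27.0% of all genes tested passed. Whether the counting used strand is not given in the sources used here. Sphk2 shares 539 bases of exon with Dbp, the clock output factor on the opposite strand, and without strand their reads could not be told apart there. Dbp had an amplitude of 0.76 ± 0.04 with the peak at ZT15.0 in C-titled libraries, and 0.64 ± 0.05 with the peak at ZT13.5 in PV-titled libraries, the same hours as Sphk2 to within 1 h. Dbp counts were a median of 1.88 times those of Sphk2 in C-titled and 1.61 times in PV-titled libraries. Sphk2 also shares 373 bases of exon with Rpl18, a ribosomal protein gene, which had an amplitude of 0.05 ± 0.05 in C-titled libraries and did not pass (edgeR, adjusted p = 0.685). On the same chromosome Car11, 4784 bases away, peaked at ZT6.87 with an amplitude of 0.12. Sult2b1, 11980 bases away on the other side, did not pass in C-titled libraries (edgeR, adjusted p = 0.177).

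Hist3h2a contains Gm44313, annotated as a microRNA of 138 bases on the opposite strand and itself at rank 9 by p value in C-titled libraries. Gm44313 counts did not exceed those of Hist3h2a in any of the 58 C-titled libraries, with a median ratio of 0.813. In PV-titled libraries they did not exceed them in 53 of 55, with a median ratio of 0.733. The amplitudes were 0.35 for Gm44313 and 0.33 for Hist3h2a in C-titled libraries, and 0.25 and 0.27 in PV-titled libraries, where Gm44313 also passed (edgeR, adjusted p = 0.0252). Trim17, a ubiquitin ligase gene on the same strand, starts at the same base and shares 708 bases of exon with Hist3h2a. It was counted at 3.55 ± 1.02 CPM in C-titled libraries, with an amplitude of 0.35 and the peak at ZT18.4. Hist3h2ba, the H2B gene 5151 bases away, did not pass in either set (edgeR, adjusted p = 0.291 and 0.632). Nor did Trim11, 21262 bases away on the other side (edgeR, adjusted p = 0.101 and 0.544).

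Klhl40 shares 540 bases of exon with Gm47108 on the opposite strand, and 9030407P20Rik shares 548 with the antisense gene 4930588G17Rik. Neither partner is a row of the table analysed here. Klhl40 lies next to Hhatl, on the opposite strand, whose C-titled amplitude was 0.57 with the peak at ZT8.61 at a level of 2.43 ± 1.23 CPM. In PV-titled libraries Hhatl did not pass (edgeR, adjusted p = 0.204). Zfp651, 5864 bases off on the other side of Klhl40, had an amplitude of 0.25 with the peak at ZT13.6. 9030407P20Rik lies 47 bases from Mosmo, which had a C-titled amplitude of 0.16 with the peak at ZT5.63. Pdzd9, 3092 bases away on the other side, had a C-titled amplitude of 0.17 with the peak at ZT5.46. Neither neighbour of Pcsk4, 2310011J03Rik and Reep6, nor of Mettl16, Pafah1b1 and Mnt, passed in C-titled libraries (edgeR, adjusted p from 0.125 to 0.44). Of the neighbours of Srrt, Ufsp1 at 38 bases did not pass (adjusted p = 0.206), and Trip6 at 1979 bases had an amplitude of 0.45 with the peak at ZT12.6, away from that of Srrt.

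**Figure D4:**
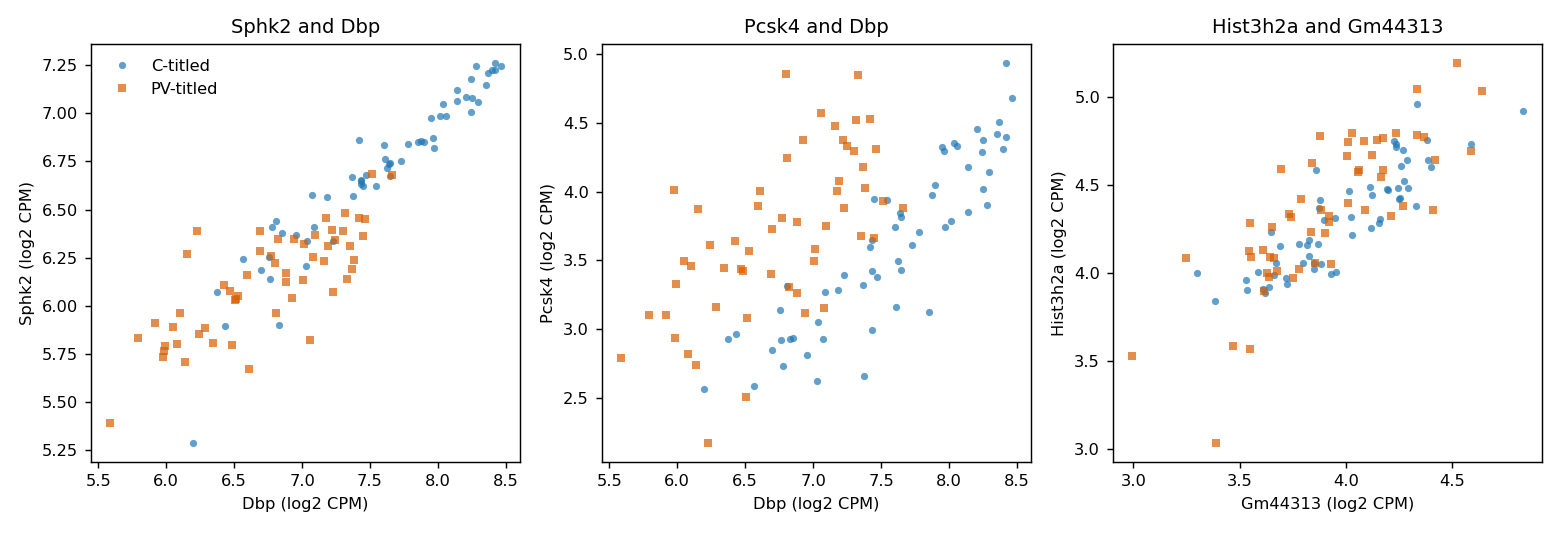
Log2 CPM of Sphk2 against Dbp, Pcsk4 against Dbp and Hist3h2a against Gm44313, 1 point per library, for C-titled (circles) and PV-titled (squares) libraries. Sphk2 and Dbp follow a line in C-titled libraries (r = 0.95), and PV-titled points of Pcsk4 and Dbp are more scattered (r = 0.63). These r values were computed after taking out sex and range, which the plotted points still hold.

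For each gene the pair of genes with the most similar values over the 58 C-titled libraries was named, by Pearson correlation of log2 CPM after taking out sex and range. Libraries share their time of day and depth, so these are descriptions. The closest to Sphk2 were Dbp (0.95) and Hrh3, the histamine H3 receptor (0.88), and Dbp (0.88) and Sphk2 (0.83) were the closest to Pcsk4. Pcsk4 shares no exon with Dbp, and the correlation over PV-titled libraries was 0.63. Closest to Klhl40 was Usp2, a deubiquitinase (0.82 in C-titled and 0.55 in PV-titled libraries), followed by Nim1k (0.79 and -0.0011). Mettl16 was closest to Chordc1, a cochaperone of HSP90 (0.84), and Cpsf6, a subunit of the cleavage machinery of messenger RNA ends (0.79), but in PV-titled libraries these were 0.09 and -0.07. Srrt was closest to Castor2 (0.81) and Hspa1b, an inducible HSP70 (0.80), against 0.29 and 0.11 in PV-titled libraries. Hspa1b itself had a C-titled peak at ZT21.1 and passed in PV-titled libraries (edgeR, adjusted p = 0.0177). Hist3h2a was closest to Gm44313 (0.87) and Srrt (0.75), and 9030407P20Rik to Bloc1s5 (0.79) and Hunk (0.78).

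Correlations among the 7 themselves were described in the same way. The 7 were chosen for their rhythm in C-titled libraries, and time of day was not taken out. Genes with near peaks therefore correlate there through the choice, and the difference from PV-titled libraries was not tested. In C-titled libraries Mettl16, Srrt and Hist3h2a had correlations of 0.70 to 0.75 with each other, and Sphk2 and Pcsk4 of 0.83. Klhl40 correlated with 9030407P20Rik at 0.65 and with the 3 late-night genes at -0.62 to -0.78. In PV-titled libraries the largest correlation among the 7 was 0.37, between Sphk2 and Pcsk4, and Mettl16 had -0.21 with Hist3h2a and -0.04 with Srrt.

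The pathways around these genes were followed through fixed lists that leave the 7 out. Each count is set beside all genes, of which 27.0% passed in C-titled libraries, 15.8% passed there with a day peak (ZT0 to ZT12), and 3.10% passed in PV-titled libraries, where 17.2% had an unadjusted p under 0.05 by edgeR. The counts without the libraries that stand apart, chosen after seeing the data, are read against 21.98%, 10.3% and 4.06% in the same order, the last for all PV-titled calls. Of 27 genes tested of sphingosine-1-phosphate and ceramide metabolism, 9 passed in C-titled libraries (33.3%), 5 with night and 4 with day peaks, and 8 did without the libraries that stand apart, 7 of them in both fits. Smpd3, a sphingomyelinase, and Spns2, the exporter of sphingosine-1-phosphate, peaked with Sphk2 at ZT15.1 with amplitudes of 0.23 and 0.21. Sptlc1, a subunit of the enzyme that starts sphingolipid synthesis, peaked at ZT2.44 with 0.15, and Cers4, a ceramide synthase, at ZT5.10 with 0.12. In PV-titled libraries 1 of the 27 passed, the ceramidase Acer2, which is named after its value was seen (amplitude 0.73, edgeR adjusted p = 0.0467). The share there was 3.7%. Without the libraries that stand apart 3 passed (11.1%), Acer2, Smpd3 and Cers1, a ceramide synthase named for this result.

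Of 10 genes of proprotein convertases and their partners, 5 passed in C-titled libraries (50%), 4 with day peaks, and 4 did without the libraries that stand apart, 3 with day peaks. Among those that passed in both fits Pcsk5, Pcsk7 and Pcsk2 had amplitudes of 0.24, 0.24 and 0.11. Their peaks at ZT5.76, ZT17.7 and ZT11.0 are spread over the day. None of the 10 passed in PV-titled libraries with edgeR or DESeq2 (2 at an unadjusted p under 0.05 by edgeR), nor without the libraries that stand apart. Of 28 kelch-like adaptors and cullin 3 partners, 8 passed in C-titled libraries (28.6%, 9 or 32.1% without the libraries that stand apart, 7 in both fits) and none in PV-titled libraries by edgeR, where 4 had an unadjusted p under 0.05 and DESeq2 called 1. Without the libraries that stand apart Klhl7 passed there. In C-titled libraries Klhl21 had an amplitude of 0.28 with the peak at ZT13.7, Klhl7 of 0.15 at ZT19.0, and Klhl5 of 0.15 at ZT20.4. Klhl9 had an amplitude of 0.82 ± 0.19 at ZT4.28, which was 0.08 ± 0.10 without the libraries that stand apart and did not pass (edgeR, adjusted p = 0.823), and DESeq2 gave it no adjusted p. The summed list was 1726 to 5519 CPM in those 5 libraries, against a median of 1630 CPM in the others.

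Of 20 m6A writers, erasers and readers, 5 passed in C-titled libraries (25%), and 4 did without the libraries that stand apart (20%, 3 of them in both fits). Mettl3, the main m6A methyltransferase, peaked at ZT21.4 near Mettl16, with an amplitude of 0.16, whereas Mettl5 peaked at ZT6.61, and both passed in each fit. Wtap and Ythdf2, with peaks at ZT4.90 and ZT4.35, did not pass without the libraries that stand apart (edgeR, adjusted p = 0.502 and 0.792), and DESeq2 gave Ythdf2 no adjusted p. The summed list was 1668 to 2645 CPM in those 5 libraries, against a median of 1655 CPM in the others. Of 20 other histone genes tested, 9 passed (45%), 7 of them with day peaks. Without the libraries that stand apart, all at ZT2 or ZT6, 5 passed (25%), 2 with day peaks, and 3 genes passed in both fits. The summed list was 1731 to 2383 CPM in those 5 libraries, above the highest of the others (1713 CPM). H3f3a, a replacement histone H3, peaked at ZT22.1 near Hist3h2a, and H2afy, Hist1h2bc and Hist1h1c at ZT2.00, ZT1.06 and ZT3.22, of which Hist1h1c did not pass without these libraries (edgeR, adjusted p = 0.0844). Of 15 cap-binding and nuclear exosome adaptor genes, 3 passed (20%), all with night peaks: Xpo1, the nuclear export receptor, at ZT23.6, Ncbp1, the large cap-binding subunit that Srrt binds, at ZT18.4, and Dgcr8, a microRNA processing factor, at ZT20.4. Their amplitudes of 0.10 to 0.16 were below the 0.37 of Srrt, and Ncbp1 did not pass without the libraries that stand apart (edgeR, adjusted p = 0.12). In PV-titled libraries edgeR called none of these 3 lists' genes, and 1 without the libraries that stand apart, Mat2a, which makes S-adenosylmethionine and is named after its value was seen. At an unadjusted p under 0.05 there were 3 of 20 m6A genes, 5 of 23 histone genes and 2 of 15 cap-binding genes, beside 17.2% of all genes, and DESeq2 called 1 m6A gene and no other.

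For comparison, 17 of 19 core clock genes passed in C-titled and 12 of 19 in PV-titled libraries (15 and 13 without the libraries that stand apart). Of the marker lists in C-titled libraries, 4 of 10 pyramidal markers passed (among them Emx1, Neurod6 and Neurod2, with peaks at ZT8.99, ZT21.9 and ZT11.3). The numbers for other markers were 1 of 8 for PV interneurons, 0 of 6 for GABAergic cells, 1 of 8 for other interneurons, 2 of 10 for astrocytes, 1 of 6 for oligodendrocytes, 1 of 10 for microglia and 0 of 9 for vessels. Without the libraries that stand apart the numbers were 0 for astrocytes and other interneurons and the same for the rest, with 3 pyramidal markers passing in both fits. By edgeR and DESeq2 no marker passed in PV-titled libraries (1 vessel marker, Slco1a4, without the libraries that stand apart, named after its value was seen), where 3 pyramidal, 3 vessel and 1 PV interneuron marker had an unadjusted p under 0.05 by edgeR. Summed pyramidal markers in C-titled libraries had their lowest median at ZT14 (5473 CPM) and their highest at ZT18 (6512 CPM). Between these times Srrt medians went from 52.2 to 75.4 CPM and Klhl40 medians from 23.98 to 12.7 CPM. At ZT10 the sum had a median of 6123 CPM, with Srrt at 44.6 and Klhl40 at 23.1 CPM. At ZT2 it was 5678 CPM, with Srrt at 65.7 and Klhl40 at 10.8 CPM. Summed astrocyte markers in C-titled libraries ran from a median of 514 CPM at ZT18 to 628 at ZT6. The median share of counts assigned to no gene ran from 52.6% at ZT14 to 53.3% at ZT2. Summed oligodendrocyte markers there had medians of 140.7 CPM at ZT6, 136.7 at ZT10, 195.7 at ZT18 and 163.6 at ZT22, low at the times when Srrt, Mettl16 and Hist3h2a were low. Mbp, the myelin basic protein gene, had a C-titled amplitude of 0.28 ± 0.06 with the peak at ZT19.2 (edgeR, adjusted p = 0.000817), and 0.24 without the libraries that stand apart. With the share of counts assigned to no gene as a further term the same number of genes, 5 of 7, passed in PV-titled libraries. Of all genes 3.21% passed in that fit, against 3.10% without the term. Of 12 nuclear long noncoding RNAs none passed in either set by edgeR or DESeq2 (1 in each set at an unadjusted p under 0.05 by edgeR), but their sum reached 25649 CPM in 1 C-titled and 54815 CPM in 1 PV-titled library, both among those that stand apart. The part of these quantities in the rhythms was not tested.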

How the data were processed

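Counts of reads per gene in 113 libraries were taken from the 1 table the authors deposited. Per the submitters' processing notes FastQC, HTSeq, DESeq2 and the build GRCm38 were used. The sources used here do not give the aligner, the annotation, versions or the use of strand. Counts assigned to no gene, whatever the reason, were 53.1% of counts in C-titled and 61.0% in PV-titled libraries and stayed out of library sizes. Of 114 libraries in the labels, 1 column was not used because its sex disagreed with the title. No library copied another of its group.

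Tests used R 4.3.3 and edgeR 4.0.16 (TMM, filterByExpr, quasi-likelihood F tests, Benjamini-Hochberg over all genes tested, threshold 0.05). Rhythm was the cosine and sine of 24 h with sex and library-number range as terms, fitted in each prefix. The prefix was tested with time, sex and range as terms. The scripts were tested on simulated data. DESeq2 1.42.0 was an alternative. The gene lists were also counted without the libraries that stand apart, an alternative chosen after seeing the data. Depth was 19.1 to 44.1 M (mega) counts. Reads carry no molecular identifiers, so counting intervals are not given.

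The 7 genes and the 16 gene lists were chosen with earlier results of these data known. Named besides the 7 were gene neighbours, the 2 most correlated genes of each, up to 4 genes of each list by p value, the 3 next genes by the rule, and Pvalb, Gad1 and Slc17a7. Replicate numbers follow accession order and pair no libraries. Some members of the gene lists are counted but not reported by name here.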

Additional observations from a re-analysis of the deposited data

Results flagged for a closer look

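Each gene was examined in the 12 groups of prefix and time, 84 groups in all, for a library far from the others of its group, and 8 were found. Chance marks about 5% of groups. In C-titled libraries they were 9030407P20Rik at ZT2 (female replicate 5, 13.2 CPM against 9.95 in the next), Hist3h2a at ZT6 (female replicate 10, 23.96 CPM against 19.4) and Sphk2 at ZT22 (male replicate 2, low at 73.7 CPM against 94.5). The first and second of these values come from libraries standing apart. In PV-titled libraries Hist3h2a was high at ZT6 (male replicate 6, 26.7 CPM against 19.96), and at ZT14 Klhl40 (male replicate 6, 26.7 CPM against 17.01), Mettl16 (male replicate 2, 59.6 CPM against 40.3) and Pcsk4 (female replicate 3, 28.8 CPM against 20.8) were high. Srrt was low at ZT10 (male replicate 1, 46.8 CPM against 68.5). Of the PV-titled ones, the Mettl16 library is among those that stand apart.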

How the results depend on the processing

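The count of the 7 genes that passed the rhythm test in PV-titled libraries was 5 and depended on the setting. It was 3 with scaling by library totals, 2 with time as a factor, 4 without the range term and 6 with DESeq2, where 2.53%, 1.2%, 3.52% and 4.39% of all genes passed, against 3.10%. It was 0 within the first range, the second range, females or males, which hold fewer libraries and in each of which 5 of the 7 had an unadjusted p under 0.05 by edgeR. Of all genes 8.75%, 10.6%, 15% and 8.08% did. It ran from 3 to 5 when 1 replicate number was left out, and was 3 without replicate 1 and without replicate 9. Of all genes 1.72% to 3% passed in these fits, with 1.8% without replicate 1 and 2.54% without replicate 9. Klhl40, Pcsk4 and 9030407P20Rik passed in all 10 of these fits, Sphk2 in 7, Hist3h2a in 2, Srrt in 1 and Mettl16 in 0. The median C-titled amplitude of 0.45 was 0.52 in the first range. The count by sex in C-titled libraries, 0, was 1 without the libraries that stand apart and 1 with DESeq2, Mettl16 in each case. Of all genes 0.698% and 0.299% passed in these settings, against 0.184% in the main fit. The level difference of Mettl16 turned from -0.19 to 0.00089 with scaling by library totals, where Pcsk4 (0.29) and Hist3h2a (0.27) passed as well. The cause of these changes was not tested. Counts of sex by rhythm in both sets, of sex in PV-titled libraries and of the prefix level were the same or within 1.5 times under every alternative run. No paired analysis was possible because replicate numbers follow accession order and pair no libraries. Depth limits 9030407P20Rik most, at 26 to 558 counts per library.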
